A study of Mus musculus with 4 samples.

Results

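The promoters of the nuclear genes that encode the mitochondrial respiratory chain were followed in 4 ATAC-seq peak lists from mouse forelimb buds. Members were all protein-coding genes of the GENCODE M21 annotation (mm10 coordinates) outside the mitochondrial genome whose symbol starts with Nduf, with Sdh followed by a to d, with Uqcr, with Cox4 to Cox8 or with Atp5. This gave 97 genes, from 98 annotation entries because Atp5o was listed under 2 identifiers, out of 21924 protein-coding genes. They comprised 44 genes of complex I, 8 of complex II, 8 of complex III, 20 of complex IV and 17 of complex V. Ndufa4 and Ndufa4l2 were counted with complex IV, where the NDUFA4 protein resides, and Atp5s, which matched by name, is not a subunit of the ATP synthase. A promoter was the window from 2 kb before to 1 kb after any annotated transcription start site (TSS) of the gene, and it counted as called where a listed peak overlapped it by at least 1 bp. Values of the 4 libraries are given in the order WT replicate 1, WT replicate 2, Shh-/- replicate 1, Shh-/- replicate 2 unless stated otherwise.

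ATAC-seq uses the Tn5 transposase to cut accessible chromatin and tag the fragments for sequencing. All libraries came from the posterior part of forelimb buds of Swiss Webster embryos at E10.5 (35 somites), where Sonic hedgehog (SHH) is made and received. The study asked how accessibility responds to Hedgehog signaling, with 2 wild-type (WT) embryos set against 2 Shh-/- embryos, which carry the null allele Shh tm1amc on both chromosomes. Each library held 5000 cells from the paired posterior fractions of a single embryo and was amplified with 18 PCR cycles. The tissue lacks SHH from the start in the mutants, so differences in cell composition and in accessibility per cell cannot be told apart in these bulk libraries.

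The respiratory chain passes electrons from NADH (complex I) and succinate (complex II) through ubiquinone and cytochrome c (complexes III and IV) to oxygen, and complex V, the ATP synthase, uses the proton gradient built on the way. Almost all subunits are encoded in the nucleus, most of them by genes that every cell uses and that have promoters rich in CpG dinucleotides. Several complex IV subunits also exist as isoforms encoded by separate genes, of which some are used mainly in muscle, testis or oxygen-poor tissue. Factors such as NRF1, the ETS protein GABP, YY1, SP1 and ERRα are known to bind promoters of this gene set.

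Promoter sequences were available for 80 of the 97 members in the RefSeq table of GRCm38.p6, 78 matched by symbol and 2 through a synonym, each spanning 250 bases before and 50 bases after a start site. The sequences shown are those of the member of each complex whose peak ranked best on average over the 4 libraries (Sdhb, Uqcrh, Cox8a and Atp5g1 for complexes II to V) and of Cox7b, a member with no promoter peak in any library. Bases run from 5′ to 3′ on the strand of the gene up to the base before the first annotated start, and any base within an annotated exon was left out. For Ndufb5, the best ranked member of complex I, the whole window lay within exons of Ndufb5 and of its overlapping neighbour Mrpl47, and no sequence is shown. Cox6a2, also never called, is named only. Capitals mark the letters of a searched motif: GGGGCGGGG (SP1) in Sdhb and CCGGAAG (ETS) in Uqcrh, both on the opposite strand. The whole entry of Cox8a also holds 2 ETS matches and that of Sdhb 1, which reach into bases not shown and are unmarked.
Sdhb: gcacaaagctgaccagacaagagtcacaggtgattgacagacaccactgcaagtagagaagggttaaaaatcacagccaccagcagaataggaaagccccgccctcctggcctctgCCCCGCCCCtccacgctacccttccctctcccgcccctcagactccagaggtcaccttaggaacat
Uqcrh: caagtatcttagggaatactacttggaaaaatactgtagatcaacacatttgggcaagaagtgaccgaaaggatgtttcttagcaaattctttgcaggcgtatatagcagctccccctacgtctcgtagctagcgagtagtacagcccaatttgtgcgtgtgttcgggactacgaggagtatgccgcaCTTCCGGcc
Cox8a: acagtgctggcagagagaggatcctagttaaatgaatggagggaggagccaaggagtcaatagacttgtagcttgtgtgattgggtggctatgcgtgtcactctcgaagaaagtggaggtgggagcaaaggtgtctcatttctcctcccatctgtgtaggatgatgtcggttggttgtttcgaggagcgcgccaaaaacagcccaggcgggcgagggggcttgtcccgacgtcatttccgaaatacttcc
Atp5g1: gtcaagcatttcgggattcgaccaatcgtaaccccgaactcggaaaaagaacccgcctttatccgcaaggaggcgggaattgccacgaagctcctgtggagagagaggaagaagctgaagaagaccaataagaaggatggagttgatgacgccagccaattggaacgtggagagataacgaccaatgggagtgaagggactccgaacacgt
Cox7b: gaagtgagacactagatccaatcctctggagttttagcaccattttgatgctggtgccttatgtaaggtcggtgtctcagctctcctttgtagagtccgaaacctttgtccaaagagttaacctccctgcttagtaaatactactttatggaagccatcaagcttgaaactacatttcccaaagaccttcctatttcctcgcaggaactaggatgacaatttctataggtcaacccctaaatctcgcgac

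These stretches lie at chr4:140961021-140961202 (plus strand, complex II), chr4:116075072-116075268 (minus strand, complex III), chr19:7217617-7217866 (minus strand, complex IV), chr11:96075671-96075881 (minus strand, complex V) and chrX:106015450-106015699 (plus strand, complex IV), all in GRCm38.p6, the assembly of mm10. The Sdhb stretch had a GC content of 57.1%, the Cox8a stretch 52.8%, the Atp5g1 stretch 51.7% and the Uqcrh stretch 47.2%. The GC content of the Cox7b stretch was 43.6%, with 5 CpG dinucleotides in 250 bases, against 11 in the Cox8a stretch of the same length and 14 in the 211 bases of Atp5g1. The Uqcrh stretch held 10 in 197 bases, but the Sdhb stretch only 4 in 182, so Cox7b was not set apart by its CpG count.

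Most respiratory chain promoters carried a peak in 3 of the 4 libraries, and the share called differed more between libraries of the same genotype than between the genotype means. Of the 97 members, 88 (90.7%) and 64 (66.0%) had a promoter peak in WT replicates 1 and 2, and 36 (37.1%) and 81 (83.5%) in Shh-/- replicates 1 and 2. The 95% Wilson intervals of these shares, which cover counting error over genes only, ran from 83.3 to 95.04%, 56.1 to 74.6%, 28.2 to 47.1% and 74.9 to 89.6%. Among all protein-coding genes the corresponding shares were 60.4% and 39.2% for WT and 17.2% and 51.2% for Shh-/-. Members were thus called more often than protein-coding genes at large in every library, and the 4 libraries fell in the same order for both. The genotypes overlapped, with Shh-/- replicate 2 above WT replicate 2. The mean share was 78.4% ± 17.5 (SD, n = 2) in WT and 60.3% ± 32.8 (SD, n = 2) in Shh-/-, a difference of 18.0 percentage points (exact permutation test, two-sided, p = 0.667). With 2 libraries against 2 this test cannot give a p below 0.333.

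The lists themselves differed in length in that same order. WT replicate 1 held 39080 peaks, Shh-/- replicate 2 18459, WT replicate 2 11973 and Shh-/- replicate 1 5589, and a list without read counts does not give its library's depth. A promoter missing from a list was not called at the threshold of that list, which differs from being closed. The limb mesenchyme markers were Prrx1, Prrx2, Tbx5, Twist1, Msx1, Msx2, Lhx9, Hand2 and Meis2. Of these 9 genes, 9, 4, 4 and 6 were called in WT replicates 1 and 2 and Shh-/- replicates 1 and 2. That was 100%, 44.4%, 44.4% and 66.7%, against 60.4%, 39.2%, 17.2% and 51.2% of all protein-coding genes. Only Prrx1 was called in all 4 libraries, while Tbx5 and Hand2 were called in WT replicate 1 alone. Markers of blood (Gata1, Hba-a1, Hbb-bt, Klf1), endothelium (Cdh5, Kdr, Tek, Tie1), muscle progenitors (Pax3, Myod1, Myf5) and ectoderm (Epcam, Krt5, Krt14, Krt18, Fgf8, Cdh1) were called for 0 or 1 gene per list and library, apart from 2 of 6 ectoderm genes in Shh-/- replicate 2. Of the hindlimb genes Pitx1 and Tbx4, 2, 0, 0 and 1 were called. Their part in the results was not tested. The Shh promoter was called in no library and the gene body held 2, 0, 0 and 2 peaks, none over an exon, so these lists do not check the genotype.

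Each list was therefore also limited to its 5589 highest scoring peaks, the length of the smallest. The score in column 5 of the peak files was used only to order peaks within a list. At equal list size the members called numbered 49 (50.5%) and 44 (45.4%) in WT replicates 1 and 2, and 36 (37.1%) and 40 (41.2%) in Shh-/- replicates 1 and 2. Both WT libraries lay above both Shh-/- libraries. The means were 47.9% ± 3.64 (SD, n = 2) in WT and 39.2% ± 2.92 (SD, n = 2) in Shh-/-, a difference of 8.76 percentage points (exact permutation test, two-sided, p = 0.333, the smallest this design allows). All protein-coding genes were at 25.5% and 25.4% in the WT libraries, 17.2% in Shh-/- replicate 1 and 25.2% in Shh-/- replicate 2, so for them only Shh-/- replicate 1 stood apart. The excess of members over all protein-coding genes was smallest in Shh-/- replicate 2.

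**Figure D1:**
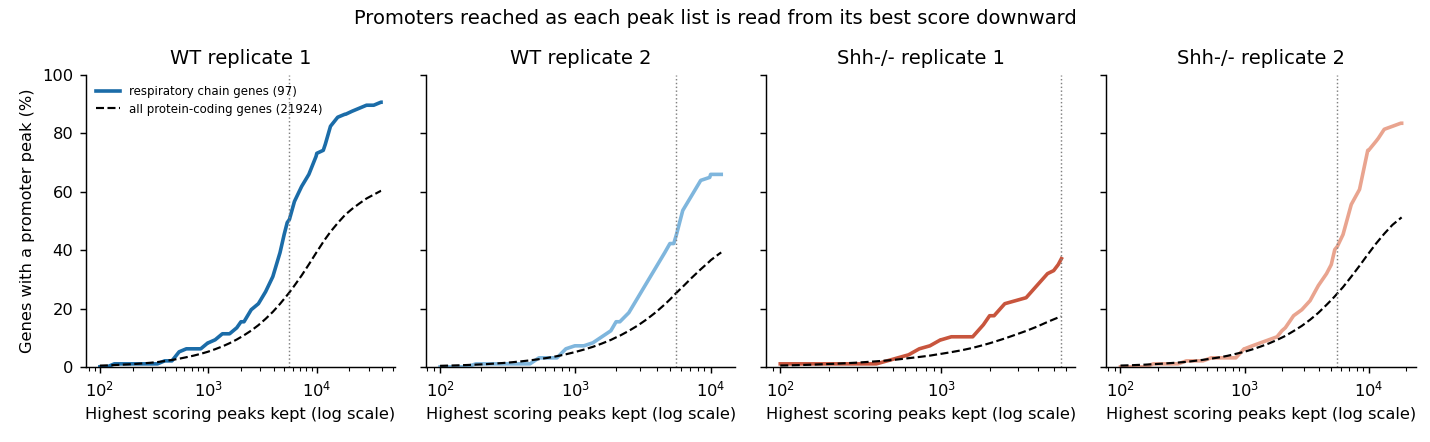
Share of genes with a promoter peak (vertical axis, percent) among the highest scoring peaks of each library (horizontal axis, number of peaks kept, log scale), for the 97 respiratory chain genes (coloured line) and all 21924 protein-coding genes (dashed line). The dotted line marks 5589 peaks, where the respiratory chain stood at 50.5%, 45.4%, 37.1% and 41.2% from left to right, above the dashed line in each panel.

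Few members were among the strongest peaks. Within the 1000 highest scoring peaks, 8, 7, 9 and 6 members had been reached, or 8.25%, 7.22%, 9.28% and 6.19% of them. All protein-coding genes stood at 5.24%, 5.11%, 4.47% and 5.18% at that depth of the lists. The gap opened further down, where most member promoters lay, as the plot of promoters reached by list depth shows.

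Calls were also compared separately for CpG-rich start sites and for the others. A start site was taken as CpG-rich if the 1 kb around the 5′ end of the gene had a GC content of at least 50% and an observed over expected CpG ratio of at least 0.6, a comparison chosen after the data had been seen. By this measure 73 of the 97 members (75.3%) were CpG-rich, against 10076 protein-coding genes (46.0%). CpG-rich promoters of all protein-coding genes were called at 93.9% and 68.9% for WT and 30.6% and 86.9% for Shh-/-. The CpG-rich members were at 95.9%, 71.2%, 41.1% and 90.4%, and the intervals of these shares held the share of all CpG-rich promoters in each library. In lists of equal size the CpG-rich members were at 57.5%, 53.4%, 41.1% and 49.3%, against 46.6%, 46.95%, 30.6% and 47.4% of all CpG-rich promoters, so WT replicate 1 and Shh-/- replicate 1 then stood furthest above, though again within the intervals of the members. The 24 members without a CpG-rich start site were called at 75%, 50%, 25% and 62.5%, against 31.9%, 14.03%, 5.91% and 20.9% of other protein-coding genes. The gap to the background was thus smaller than that over all genes for CpG-rich members and, in 3 of the 4 libraries, larger for the others, Shh-/- replicate 1 being the exception. Composition still differed within each class. The 24 members had a median CpG ratio of 0.485 and GC content of 51.35%, against 0.243 and 48.5% for other protein-coding genes. For CpG-rich members these were 0.759 and 57.2%, against 0.787 and 61.7% for all CpG-rich genes.

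Ribosomal protein genes, which every cell uses too, were set beside the members for comparison. For 76 cytosolic ribosomal protein genes, 85.5% of them CpG-rich, the shares called were 100%, 64.5%, 38.2% and 97.4%, and for 78 mitochondrial ribosomal protein genes, 85.9% of them CpG-rich, they were 96.2%, 56.4%, 25.6% and 87.2%. The respiratory chain members thus lay below both ribosomal sets in WT replicate 1 and Shh-/- replicate 2 and above the mitochondrial ribosomal set in WT replicate 2 and Shh-/- replicate 1. In lists of equal size the order turned for the mitochondrial ribosomal set, which was at 33.3%, 35.9%, 25.6% and 30.8%, below the members in all 4 libraries, while the cytosolic set was at 53.9%, 35.5%, 38.2% and 44.7%. Without the 8 isoforms of restricted use, the members were at 94.4%, 69.7%, 39.3% and 88.8%.

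Gene by gene, 33 of the 97 members (34.0%) were called in all 4 libraries, against 16.1% of protein-coding genes and 2942 of the 10076 CpG-rich ones (29.2%). A further 33 members (34.0%) were called in 3 libraries, 15 (15.5%) in 2, 8 (8.25%) in a single library and 8 (8.25%) in none. The shares of all protein-coding genes were 22.1%, 13.5%, 10.3% and 37.9%, so the members differed from them mainly in being called in none less often and in 3 or 4 libraries more often. Of the CpG-rich members 28 of 73 (38.4%) were called in all 4. At equal list size 27 members were called in all 4 libraries, where the background was 13.2%. The commonest pattern besides all 4 was a call in every library except Shh-/- replicate 1, which held for 30 members (30.9%, against 21.1% of protein-coding genes), followed by a call in the 2 longest lists alone, WT replicate 1 and Shh-/- replicate 2, which held for 14 (14.4%, close to the background of 11.8%).

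Members called in all 4 libraries included Ndufa2, Ndufa11, Ndufa12, Ndufa13, Ndufab1, Ndufaf5, Ndufaf8, Ndufb4, Ndufb5, Ndufs1, Ndufs7, Ndufs8, Ndufv1 and Ndufv2 of complex I, Sdhaf2, Sdhb and Sdhd of complex II, Uqcrb, Uqcrc1, Uqcrh and Uqcrq of complex III, Cox6b2, Cox7a2, Cox7a2l, Cox8a and Ndufa4 of complex IV, and Atp5b, Atp5c1, Atp5f1, Atp5g1, Atp5j and Atp5s of complex V. Those missing from Shh-/- replicate 1 alone were Ndufa5, Ndufa6, Ndufa8, Ndufaf2, Ndufaf3, Ndufaf4, Ndufaf7, Ndufb3, Ndufb6, Ndufb7, Ndufb10, Ndufb11, Ndufc1, Ndufs3 and Ndufs4 of complex I, Sdhaf3, Sdhaf4 and Sdhc of complex II, Uqcrc2 and Uqcrfs1 of complex III, Cox6a1, Cox7c and Ndufa4l2 of complex IV, and Atp5a1, Atp5e, Atp5g2, Atp5h, Atp5j2, Atp5mpl and Atp5o of complex V. The 14 called in the 2 longest lists alone were Ndufa3, Ndufa7, Ndufa10, Ndufaf6, Ndufb2, Ndufb9, Ndufs5 and Ndufv3 of complex I, Sdha of complex II, Cox4i1, Cox5a, Cox5b and Cox6b1 of complex IV, and Atp5g3 of complex V. Atp5d, Atp5l and Uqcr10 were missing from WT replicate 2 alone. The 8 members called in a single library were Atp5k, Cox4i2, Cox6c, Cox7a1, Ndufa1, Ndufc2 and Ndufs6 in WT replicate 1 and Ndufaf1 in Shh-/- replicate 2, and the 8 called in none were Cox6a2, Cox7b, Cox7b2, Cox8b, Cox8c, Ndufa9, Ndufb8 and Sdhaf1.

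Only Uqcr11, a small subunit of complex III, was called in both WT libraries and in neither Shh-/- library, and no member showed the reverse. The background was 1.53% of protein-coding genes for the first pattern and 0.00456% for the second. Uqcr11 had a peak of 1102 bp at a rank percentile of 22.3 in WT replicate 1 and a peak of 326 bp at 68.4 in WT replicate 2, where the rank percentile is the position in the list ordered by score, 0 being the highest. In Shh-/- replicates 1 and 2 the nearest peaks lay 6864 and 6869 bp from its start site. Of the other pairings of libraries, only WT replicate 1 with Shh-/- replicate 2 held members (the 14 above). The remaining 3 held 0 members and at most 0.155% of protein-coding genes each, so the members followed the background. At equal list size, 4 members were called in the WT libraries alone (background 1.47%): Atp5h, which encodes subunit d of the ATP synthase stalk, and the accessory complex I genes Ndufa5, Ndufb7 and Ndufb11. No member was called in the Shh-/- libraries alone (background 0.36%). All 4 were called in the whole list of Shh-/- replicate 2, below the limit, and had no promoter peak in Shh-/- replicate 1, whose whole list is the equal list.

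**Figure D2:**
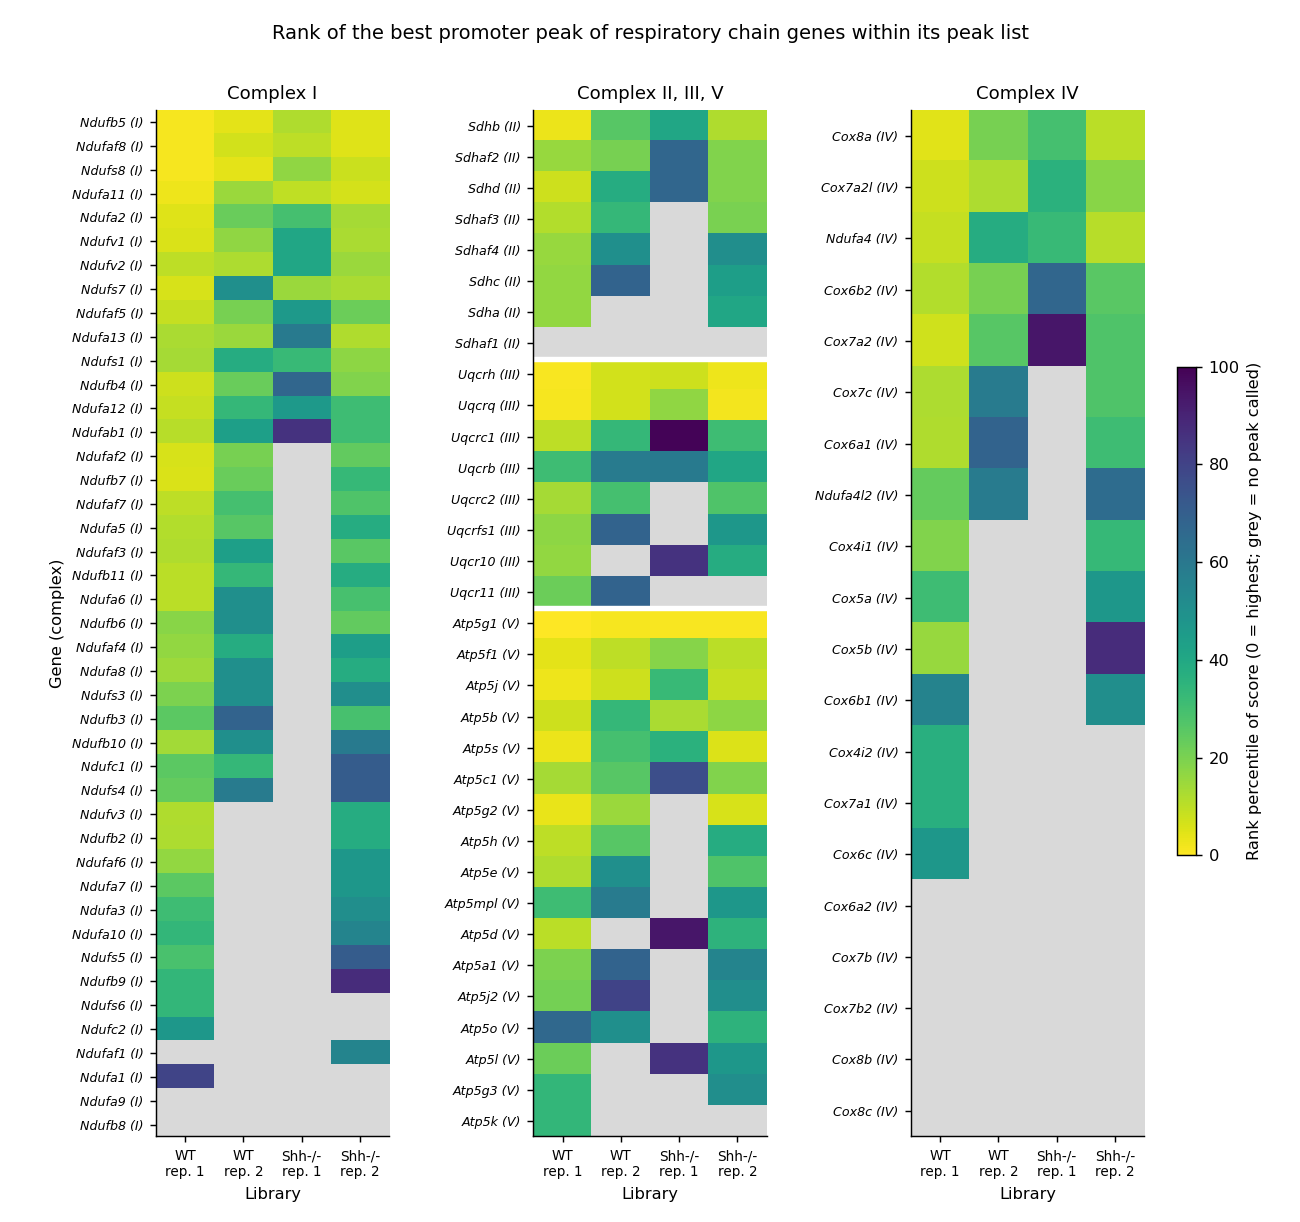
Rank percentile of the best scoring promoter peak of members (rows, with the complex in brackets) in each library (columns); yellow is the top of a list, dark blue its bottom and grey no peak called. Atp5g1 was near the top of every list, and 8 genes, 5 of them in complex IV, are grey throughout.

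The complexes were called in varying shares, none set apart by its interval. Complex I was called for 41, 30, 15 and 39 of 44 genes and complex V for 17, 13, 8 and 16 of 17. Complex II was called for 7, 6, 3 and 7 of 8 genes, and complex III for 8, 7, 5 and 7 of 8. Complex IV was the lowest in every library, with 15, 8, 5 and 12 of 20 genes, or 75%, 40%, 25% and 60%. The intervals of the smaller complexes are wide (30.6 to 86.3% for complex III in Shh-/- replicate 1, for example), and those of all 5 complexes overlapped in each of the 4 libraries. The share with a CpG-rich start site was 50% in complex IV, 75% in complexes II and III, 84.1% in complex I and 82.4% in complex V.

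**Figure D3:**
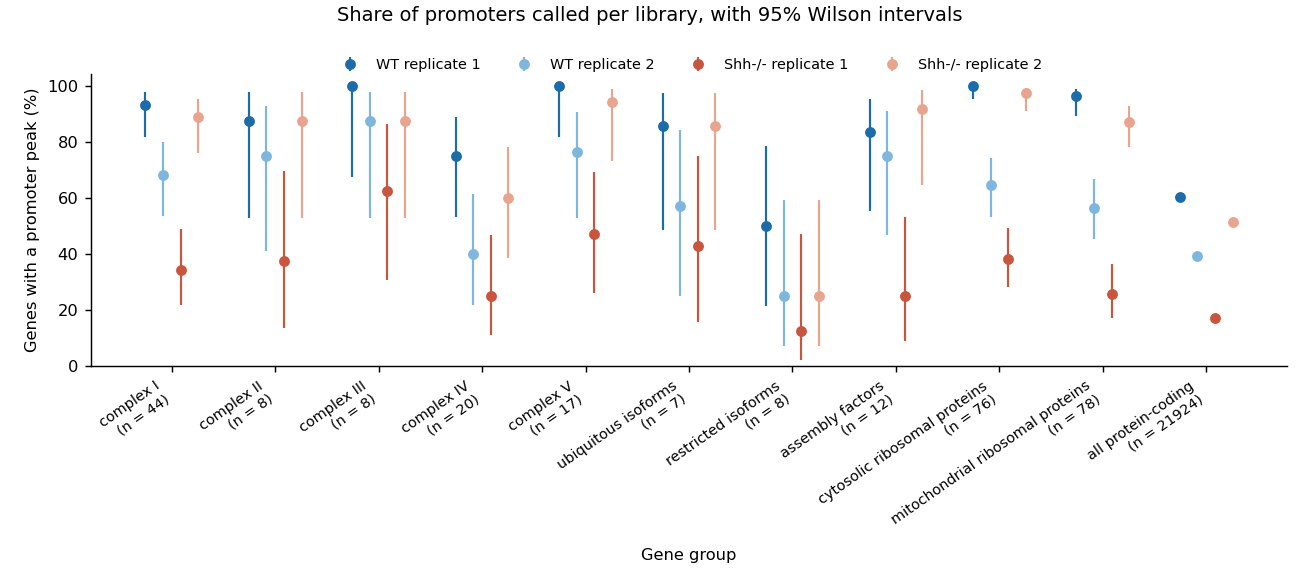
Share of genes with a promoter peak (vertical axis, percent) per gene group (horizontal axis, number of genes in brackets) in each of the 4 libraries (colours), with 95% Wilson intervals as bars. Complex IV lies below the other complexes in each library, with overlapping bars, and its restricted isoforms are at 50%, 25%, 12.5% and 25%.

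Within complex I the core subunits, which carry the flavin, the iron-sulfur clusters and the ubiquinone site, were called more often than the accessory subunits. All 7 had a promoter peak in WT replicate 1, WT replicate 2 and Shh-/- replicate 2, and 6 had a peak in Shh-/- replicate 1. Of the 29 accessory subunits, 27, 17, 7 and 24 were called. In Shh-/- replicate 1 that was 85.7% of core subunits (interval 48.7 to 97.4%) against 24.1% of accessory subunits (12.2 to 42.1%). In the whole lists of the other 3 libraries the intervals of both sets overlapped (64.6 to 100% against 78.0 to 98.1%, 40.7 to 74.5% and 65.5 to 92.4%). At equal list size the core subunits were at 85.7%, 71.4%, 85.7% and 85.7% and the accessory subunits at 48.3%, 37.9%, 24.1% and 27.6%, so the order held in each library. CpG-rich start sites were no commoner in the core set (71.4%) than in the accessory set (82.8%).

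Ndufs8, whose product holds iron-sulfur clusters of the electron path, had the best ranked peak of the core set, at percentiles of 1.31, 4.01, 16.6 and 8.02. The accessory subunit Ndufb5 of the membrane arm ranked best of complex I, at 1.38, 4.01, 11.8 and 4.82, with peaks of 1092, 864, 673 and 860 bp. Its window also holds the start site of Mrpl47, a mitochondrial ribosomal protein gene on the other strand, 192 to 258 bp from the summits, which were nearer to the Ndufb5 start.

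The 8 complex I assembly factors, which build the enzyme and do not stay in it, were called for 7, 6, 2 and 8 genes. Ndufaf8 and Ndufaf5, which acts on the core subunit NDUFS7, were called in all 4 libraries. Ndufaf8 was at percentiles of 1.43, 7.003, 10.2 and 5.07. Ndufaf1 was the only member called in a Shh-/- library alone, with a peak of 256 bp at percentile 54.8 in Shh-/- replicate 2, and its nearest peaks in the WT lists lay 11867 and 12263 bp away. Ndufa9 and Ndufb8, both accessory subunits, had no promoter peak in any library, although both start sites were CpG-rich (ratios of 0.676 and 0.729). The nearest peak to the Ndufb8 start lay 7230 bp away in WT replicate 1 and that to the Ndufa9 start 90236 bp. Ndufa1, Ndufc2 and Ndufs6 were called in WT replicate 1 alone, with peaks of 259, 336 and 364 bp, and the summit at Ndufa1 was nearer to the divergent Rnf113a1 start (13 bp) than to its own (−95 bp).

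In complex II, the iron-sulfur subunit gene Sdhb and the membrane anchor gene Sdhd were called in all 4 libraries, and Sdhc, the other anchor, in all but Shh-/- replicate 1. Sdhb was at percentiles of 2.95, 25.8, 40.8 and 12.1, and its peaks measured 1052, 475, 372 and 956 bp. Sdha, which encodes the flavoprotein, was called in the 2 longest lists alone. Its peaks there were at percentiles of 16.1 and 40.8. The assembly factor Sdhaf2, which adds the flavin to SDHA, was called in all 4 libraries, and Sdhaf3 and Sdhaf4 in all but Shh-/- replicate 1. Sdhaf1 was called in none, but peaks of WT replicate 1 and Shh-/- replicate 2 lay 1282 and 1203 bp after its annotated start, just outside the window. That start site had an observed over expected CpG ratio of 0.0862, the lowest of the 97 members. The RefSeq start matched to Sdhaf1 lies 1520 bp further into the gene, on the side of these peaks. Both the missing call and the ratio thus depend on the annotated start used.

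All 8 complex III genes of the name rule, which leaves out the subunit gene Cyc1, were called in WT replicate 1 and 4 in every library. Uqcrh, the hinge protein that docks cytochrome c, had the best ranked peaks of the complex, at percentiles of 1.002, 7.003, 7.62 and 2.59. They measured 1890, 1068, 463 and 2011 bp, the largest mean width of the 33 members called in all 4 libraries (1358 bp). The start of Lrrc41 lies 198 bp away on the other strand, and in both WT libraries the summit was nearer to it (46 and 61 bp). Uqcrq was close to Uqcrh in rank, at 1.34, 7.003, 16.6 and 1.64. Uqcrc1, a core protein of the matrix side, was at 10.1, 33.3, 98.9 and 31.1, so its peak was among the last of the list of Shh-/- replicate 1. Uqcrfs1, which encodes the Rieske iron-sulfur protein, and Uqcrc2 were called in all but Shh-/- replicate 1, and Uqcr10 in all but WT replicate 2.

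In complex IV the widely used isoforms were called more often than those of restricted use, but the intervals of both groups overlapped in each library. Of the 7 genes for the widely used isoforms, 6, 4, 3 and 6 were called. Of the 8 isoforms of restricted use, 4, 2, 1 and 2 were called, or 50%, 25%, 12.5% and 25%. All protein-coding genes without a CpG-rich start site were lower in each library, at 31.9%, 14.03%, 5.91% and 20.9%. The start sites differed as well, with a median observed over expected CpG ratio of 0.780 for the first group and 0.329 for the second, and 5 of 7 against 0 of 8 CpG-rich. Among the muscle isoforms, Cox6a2 and Cox8b were called in no library and Cox7a1 in WT replicate 1 alone (387 bp, percentile 37.0), while their partners Cox6a1 (all but Shh-/- replicate 1), Cox8a (all 4) and Cox7a2 (all 4) were called more widely. The testis isoforms Cox7b2 and Cox8c were called in no library. Cox4i2, the lung and low-oxygen isoform, was called in WT replicate 1 alone, and its partner Cox4i1 in WT replicate 1 and Shh-/- replicate 2.

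There were 3 exceptions to this order. Cox6b2, a testis isoform with 6 annotated start sites, was called in all 4 libraries, at percentiles of 11.3, 20.7, 67.1 and 25.6 and widths of 1373, 897, 522 and 1664 bp, while the widely used Cox6b1 was called in WT replicate 1 and Shh-/- replicate 2 alone (percentiles 55.3 and 50.7). Ndufa4l2, which low oxygen induces, was called in all but Shh-/- replicate 1, but with summits at −1978, −1883 and −1849 bp, negative values being before the start. Within 500 bp on each side of a start site it was called in WT replicate 1 alone, through another peak of lower score. Its partner Ndufa4 was called in all 4, with summits at −231 to −31 bp. Cox7b, the widely used form, was called in no library, like its testis partner Cox7b2, and the nearest peak lay 3655 bp away in WT replicate 1. Cox7b is on the X chromosome, and its ratio of 0.482 was the lowest of the 7 widely used forms.

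**Figure D4:**
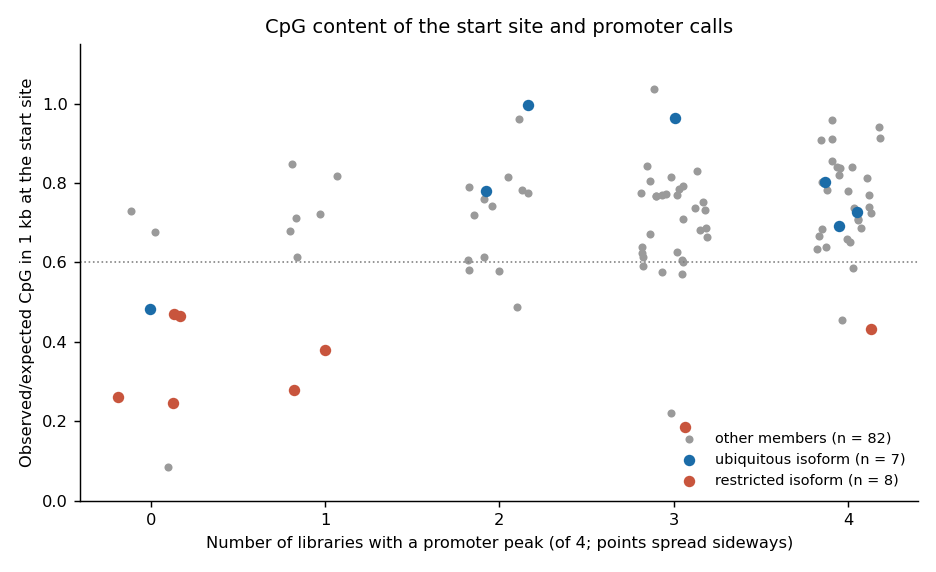
Observed over expected CpG ratio in the 1 kb around the start site of each member (vertical axis) by the number of libraries with a promoter peak (horizontal axis), with isoforms of wide use in blue and of restricted use in red. The dotted line marks a ratio of 0.6; all 8 restricted isoforms lie below it, 6 of them at 0 or 1 library.

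The subunits of complex IV that have a single form were called less evenly. Cox7c was called in all but Shh-/- replicate 1, Cox5a and Cox5b in the 2 longest lists alone and Cox6c in WT replicate 1 alone. None of the 4 was thus called in all libraries. All 4 start sites were CpG-rich, but only 29.2% of CpG-rich protein-coding genes were called in all 4 libraries. Cox7a2l, which helps to join complexes III and IV into supercomplexes, was called in all 4. Cox8a had the best mean rank of the complex, at percentiles of 4.31, 20.7, 29.5 and 10.4, and its peaks measured 882, 624, 481 and 753 bp.

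The highest ranked promoter of the whole set belonged to complex V. Atp5g1 encodes the c subunit of the membrane rotor, as do Atp5g2 and Atp5g3. By score its peak was number 125 of 39080 and 168 of 11973 for WT and 54 of 5589 and 166 of 18459 for Shh-/-, or percentiles of 0.320, 1.43, 0.975 and 0.916. The genotypes overlapped. Summits lay at −211 to −150 bp from its start site in a region with a GC content of 50 to 53.5%, below that of most member peaks, and the printed Atp5g1 stretch holds all 4 of them. The other c subunit genes were not alike. Atp5g2 was at percentiles of 3.28, 14.9 and 5.95 in the lists other than Shh-/- replicate 1, where it was not called, and Atp5g3 was called in the 2 longest lists alone, at 33.7 and 50.7.

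Of the 5 genes of the catalytic F1 head, 5, 4, 3 and 5 were called, and of the 11 genes of the Fo part and the stalk 11, 8, 4 and 10. Atp5b, the catalytic β subunit, was called in all 4 libraries at percentiles of 7.501, 33.3, 12.7 and 16.9, and Atp5a1, the α subunit, in all but Shh-/- replicate 1. Atp5c1, the central γ shaft, was called in all 4. Atp5d was called in all but WT replicate 2, where the nearest peak lay 2161 bp from its first start site. Atp5k, which encodes the small subunit e, was called in WT replicate 1 alone, with a peak of 531 bp at percentile 33.7.

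Several members share their promoter region with another gene. The windows of 33 members held a start site of another protein-coding gene, and 24 members had a divergent neighbour within 1 kb, at a median distance of 86 bp. All 33 were called in WT replicate 1, and 25, 16 and 31 in WT replicate 2 and Shh-/- replicates 1 and 2. Of the 64 members without such a neighbour, 55, 39, 20 and 50 were called, or 85.9%, 60.9%, 31.2% and 78.1%. The sets also differed in base composition, with CpG-rich start sites in 87.9% of the 33 and 68.75% of the 64. Protein-coding genes at large were not split in this way, and the part of the neighbour was not tested. The summit lay nearer to the neighbour's start than to the member's own in 11, 11, 6 and 12 of the called members. The peaks at Atp5j and Atp5f1 in complex V were such cases in all 4 libraries. Those at Atp5j, which encodes coupling factor 6, had summits 364 to 618 bp inside the gene and 15 to 63 bp from the start of Gabpa, the DNA-binding subunit of GABP. Those at Atp5f1, which encodes subunit b, lay 732 to 759 bp inside the gene and 2 to 29 bp from the start of Wdr77. The RefSeq start matched to Atp5f1 lies 836 bp inside the gene, so these summits lay before it.

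In complex I, the summits at Ndufa11 lay at −694 to −678 bp from its nearest start and 96 to 112 bp from the start of Vmac, and those at Ndufa13 at −737 to −703 bp, nearest to Yjefn3 (549 to 583 bp). Peaks at these genes were also among the 5 widest by mean: 1358 bp at Uqcrh, 1357 bp at Atp5j, 1196 bp at Ndufa11, 1114 bp at Cox6b2 and 1044 bp at Ndufa13. For 4 of the 5, Cox6b2 being the exception, a start site of another gene lay in the window.

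Peaks centred on the start sites in every library. The median summit position relative to the nearest start of the gene was 11.5 and −9.5 bp for WT and −48 and 11 bp for Shh-/-, with 61.4%, 51.6%, 47.2% and 60.5% of summits within 100 bp. Among all protein-coding genes called, 47.9%, 48.4%, 37.2% and 49.1% of summits were within 100 bp. The peak covered a start site of the member in 94.3%, 79.7%, 66.7% and 91.4% of called members.

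The median width of the members' peaks was 712 and 475.5 bp for WT and 344 and 675 bp for Shh-/-. Peaks at all protein-coding promoters called measured 772, 513, 392 and 706.5 bp, and the peaks of the whole lists 414, 406, 356 and 515 bp. The members' peaks were therefore slightly narrower than those at promoters in general. The genotypes overlapped, with means of 594 bp ± 167 (SD, n = 2) in WT and 509.5 bp ± 234 (SD, n = 2) in Shh-/- (exact permutation test, two-sided, p = 0.667).

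**Figure D5:**
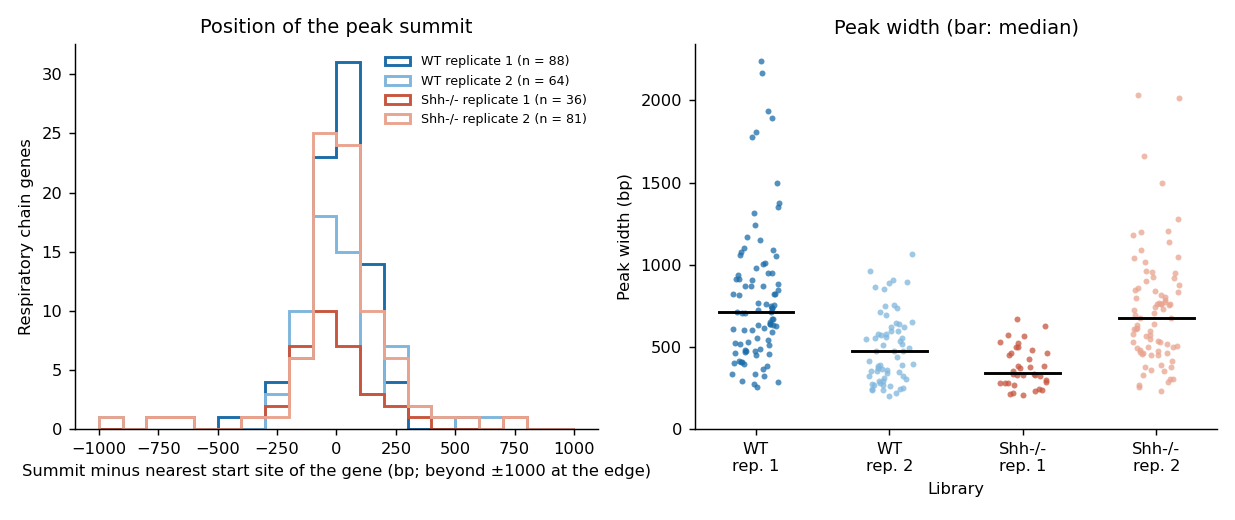
Left, number of members (vertical axis) by distance of the summit from the nearest start site of the gene (horizontal axis, bp, negative before the start) in each library; right, width of each member's peak (vertical axis, bp) by library, with the median as a bar. Summits gather within 250 bp of the start, and median widths are 712, 475.5, 344 and 675 bp from left to right.

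GC content in the 200 bp around the summits had a median of 61.5% and 62.25% for WT and 56.75% and 61.5% for Shh-/-, against 65%, 66.5%, 60.5% and 66.5% at all protein-coding promoters called. Shh-/- replicate 1 was the lowest in both. The means were 61.9% ± 0.530 (SD, n = 2) in WT and 59.1% ± 3.36 (SD, n = 2) in Shh-/- (exact permutation test, two-sided, p = 0.667). Over the 33 members called in all 4 libraries the medians were 60%, 59.5%, 58% and 60.5%, a narrower range. Of the 80 members shared by the 2 longest lists (WT replicate 1 and Shh-/- replicate 2), the 39 with a GC content above the median of 56.8% in 1 kb were called at 79.5% and the other 41 at 78.0% in WT replicate 2. In Shh-/- replicate 1 these shares were 48.7% and 41.5%.

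The median rank percentile of the members' peaks was 12.6 and 33.3 for WT and 40.8 and 31.1 for Shh-/-, and that of all protein-coding promoters called was 17.9, 33.3, 40.8 and 31.1. The medians of members and of all called promoters thus differed in WT replicate 1 and were equal to 3 digits in the other libraries. Tied scores share a percentile, which also depends on list length. By number in its list the members' median peak was at 4979, 3784, 2266 and 5595. That of all protein-coding promoters called was at 6886, 4156, 2151 and 5730, so these medians did not coincide. The genotype means were 22.9 ± 14.6 (SD, n = 2) in WT and 35.9 ± 6.84 (SD, n = 2) in Shh-/- (exact permutation test, two-sided, p = 0.667). The order of members was similar between libraries, with Spearman coefficients from 0.495 (WT replicate 2 with Shh-/- replicate 1, 33 members) to 0.860 (both Shh-/- libraries, 36 members), given as a description since members share peak width, base composition and neighbours.

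Among the 33 members called in all 4 libraries, 28 had a lower mean percentile, that is a better rank, in WT and 5 in Shh-/-, with a median difference of −12.1 points. The same held for 88.5% of the 3519 protein-coding genes called in all 4, and the percentile moves with list length. By number in the list, 16 of the 33 members and 49.8% of the protein-coding genes ranked better in WT. Of those called in all 4 at equal list size, 13 of 27 members and 54.0% of 2890 protein-coding genes did. The number, too, is bounded by list length, at 5589 in Shh-/- replicate 1. The 28 are therefore not read as a result about the members or the genotype. By percentile, large differences were found at Cox7a2 (16.5 in WT against 60.7 in Shh-/-), Uqcrc1 (21.7 against 65), Ndufab1, the acyl carrier protein (27.3 against 58.2), and Cox6b2 (16 against 46.4). These 4 were picked for that difference, so it is a description. For each of the 4 the percentile in Shh-/- replicate 1, the shortest list, was far above that in Shh-/- replicate 2. By number in the list, the peak of Cox7a2 was at 2873 and 3277 in WT and 5454 and 5216 in Shh-/-, and that of Uqcrc1 at 4007 and 4216 in WT and 5586 and 5898 in Shh-/-. At Ndufab1 (4317, 5476, 4965 and 5859) and Cox6b2 (4491, 2555, 3882 and 4799) the genotypes overlapped.

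Genes that belong to or act with the respiratory chain but are outside the name rule were called as follows. All protein-coding genes stood at the 60.4%, 39.2%, 17.2% and 51.2% given above. Of 16 genes for cytochromes c and c1, the electron-transfer flavoprotein and its dehydrogenase, and ubiquinone synthesis, 15, 12, 7 and 14 were called, or 93.8%, 75%, 43.8% and 87.5%. Cyc1, for the complex III subunit cytochrome c1, was called in WT replicate 1 and Shh-/- replicate 2 alone. Cycs, the somatic cytochrome c, was called in all 4, and Cyct, the testis form, in none. Of 27 further assembly factors, 26, 23, 10 and 24 were called, or 96.3%, 85.2%, 37.0% and 88.9%. Of 13 regulators of mitochondrial genes, 13, 9, 5 and 12 were called, or 100%, 69.2%, 38.5% and 92.3%, with Gabpa, Sp1, Esrra, Tfb1m and Tfb2m called in all 4, Nrf1, Yy1 and Tfam in all but Shh-/- replicate 1, and Ppargc1a, the coactivator best known from muscle and brown fat, in WT replicate 1 alone.

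Letters of known motifs were counted in the 300-base promoter entries of 80 members and 16876 protein-coding genes, on both strands. GCGCANGCG (NRF1) was found in 23 members (28.75%) against 9.16% of all promoters, CCGGAAG (ETS) in 20 (25%) against 12.3%, AAGATGGC (YY1) in 10 (12.5%) against 3.24% and TCAAGGTCA (ERR) in 2 (2.5%) against 0.332%. GGGGCGGGG (SP1) was in 13 (16.25%) against 16.1%, and TATAAA in 8 (10%) against 13.1%. TGGGTGGTC, the letters that GLI factors of the Hedgehog pathway bind, was in 0 members against 0.184%. No matches of different motifs overlapped in a member, 20 members held letters of 2 or more motifs and 28 of none. NRF1 letters were in 5 of 28 members called in all 4 libraries (17.9%) and in 18 of 52 called in fewer (34.6%), while ETS letters were at 25% in both. The motif shares were not matched for CpG content, and 75.3% of members against 46.0% of protein-coding genes were CpG-rich. A match is a description of the letters and not of binding.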

How the data were processed

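The 4 ATAC-seq libraries were grouped by their titles (WT and Shh-/-, 2 each, described as biological replicates). The submitters' processing notes name Bowtie2 2.2.5, MACS2 2.1.0 and mm10 (GRCm38), and the methods peak calling at q = 0.05 with 200 bp windows. Read filters and any Tn5 shift are not given in the sources used here. The authors deposited 1 peak list per library with a score per peak, whose scale is not stated in the files; fold, p-value and q-value columns held 0, and no peak ended beyond a chromosome of GRCm38.p6. A peak list holds no counts, so depth is unknown and intervals cover counting error over genes only; the study's test of signal in peaks was not repeated.

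Peaks were overlapped with windows around the start sites of the GENCODE M21 basic set (Python 3.11.15, pandas 2.3.3, numpy 2.4.6, scipy 1.17.1); entries sharing a symbol were merged. The best scoring peak represented a gene; tied scores shared their mean percentile and were ordered by position for list limits (218, 879, 120 and 347 peaks shared the score at the limit in WT replicates 1 and 2 and Shh-/- replicates 1 and 2). Genotypes were compared by two-sided exact permutation over libraries, checked on simulated data. Alternatives covered score, list size, window, overlap, start sites, members and left-out libraries. Named genes were those called in 0 or 1 library or in 1 genotype alone, the best ranked per complex, paralogs, the 5 widest, the 5 with the largest genotype difference in percentile and members of small roles; others (Ndufs8, Uqcrq, Atp5g2, Atp5g3 and the neighbours, for example) were chosen after their values were seen. The values of 1 gene are not reported here. The members, lists and tests were chosen with earlier results of these data known.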

Additional observations from a re-analysis of the deposited data

How the results depend on the processing

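The difference in the share of members called (18.0 percentage points higher in WT) kept its direction under 14 of 15 alternatives. Leaving out each library in turn gave −5.15 to 41.2, and it turned negative (−5.15) without Shh-/- replicate 1. At equal list size the difference was positive under all 15 alternatives, from 6.19 (without WT replicate 1) to 12.4 (score of at least 50). That score limit left the lists unequal, because it cut WT replicate 2 and Shh-/- replicate 1 below 5589 peaks. The largest difference among the other alternatives was 11.3 (without WT replicate 2). With the same-numbered libraries paired as a replicate block, the differences were 18.0 (exact sign-flip p = 1) and 8.76 at equal list size (p = 0.5, the smallest it allows); the labels do not say that a number marks a shared litter or day, and the lists do not show it. Members called in all 4 libraries numbered 33 of 97 (34.0%), and 18 of the 64 with no other start site in the windows (28.1%). When a library was left out, members called in all the remaining ones numbered 33 to 63, with 63 without Shh-/- replicate 1. Members called in WT alone numbered 1, 4 at equal list size, and 1 to 31 when a library was left out (8 without WT replicate 2, 31 without Shh-/- replicate 2). Members called in Shh-/- alone numbered 0, and 0 to 3 when a library was left out (3 without WT replicate 1). The difference in median width (84.2 bp wider in WT) was −81.2 to 250 bp when a library was left out, negative without WT replicate 1 (−34 bp) and without Shh-/- replicate 1 (−81.2 bp). The differences in median GC content (2.75 points higher in WT) and rank percentile (−12.99 points, WT minus Shh-/-) kept their direction under every alternative run but not their size. Leaving out a library gave 0.375 (without Shh-/- replicate 1) to 5.125 (without Shh-/- replicate 2) points of GC and −23.4 (without WT replicate 2) to −2.63 (without WT replicate 1) points of percentile, and GC differed by 0.5 over members called in all 4 libraries. Members with a better rank in WT numbered 28 by percentile and 16 by number in the list, an alternative chosen after seeing the data. Using every transcript of the annotation, an alternative chosen after seeing the data, gave 34 members called in all 4 libraries and a difference of 18.6 points. Without read counts, lower accessibility and lower depth cannot be told apart for promoters not called in the 2 shorter lists.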
